A study of Mus musculus with 6 samples.

Results

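The genes described here are 10 of the 55487 in the count table: the matricellular genes Tnc (tenascin C), Postn (periostin), Thbs1 and Thbs2 (thrombospondins 1 and 2) and Spp1 (osteopontin), and the hyaluronan genes Has1, Has2 and Has3 (the hyaluronan synthases), Tnfaip6 (TSG-6) and Cd44 (the main hyaluronan receptor). They were taken by symbol, each matched 1 row of the table, and all 10 had enough counts to be tested. The samples were 6 libraries of dorsal mouse skin collected on day 2, 3 labelled control and 3 labelled DPCP for the contact sensitizer diphenylcyclopropenone. The strain, age and sex of the mice, the handling of the control skin and the route and dose of DPCP are not given in the sources used here, nor is it stated whether replicates are different mice, so p-values here reflect only sample-to-sample spread, possibly technical. By its title the study is about macrophages and hair regrowth after contact hypersensitivity, and this comparison asks how gene expression differs between DPCP and control skin.

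Matricellular proteins are secreted into the extracellular matrix but bind cell surface receptors more than they bear load. In adult skin tenascin C, thrombospondin 1 and osteopontin are best known from wounds and inflammation, while periostin is made by dermal fibroblasts. Hyaluronan is a long sugar polymer, extruded at the plasma membrane by 3 related synthases, degraded by hyaluronidases and bound by CD44 on keratinocytes, fibroblasts and leukocytes. TSG-6 moves protein chains from inter-alpha-trypsin inhibitor onto hyaluronan and so changes how the polymer is cross-linked.

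All 10 genes had higher mean levels in DPCP skin, and 9 of the 10 passed the test. Of the 18259 genes entering the edgeR fit (quasi-likelihood test), 22.8% were called higher and 23.3% lower at a Benjamini-Hochberg adjusted p under 0.05 (46.1% in either direction). For 9 of the 10 genes the 3 DPCP libraries lay above all 3 control libraries, as they did for 28.6% of all tested genes (58% did not overlap in either direction). DESeq2, run as an alternative, called 19.6% of all its tested genes higher. The median log2 fold change of the 10 was 1.85, against −0.01 for all tested genes. The 10 genes were chosen with earlier results of these data known, so these contrasts with all genes are not independent of that choice. Tnc and Spp1 differed most, followed by Has3, and Thbs2 was the gene that did not pass. Counts from whole skin do not separate more cells of a type from more RNA per cell. In the plot of levels by library the gap between the groups is widest for Tnc and absent for Thbs2.

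**Figure D1:**
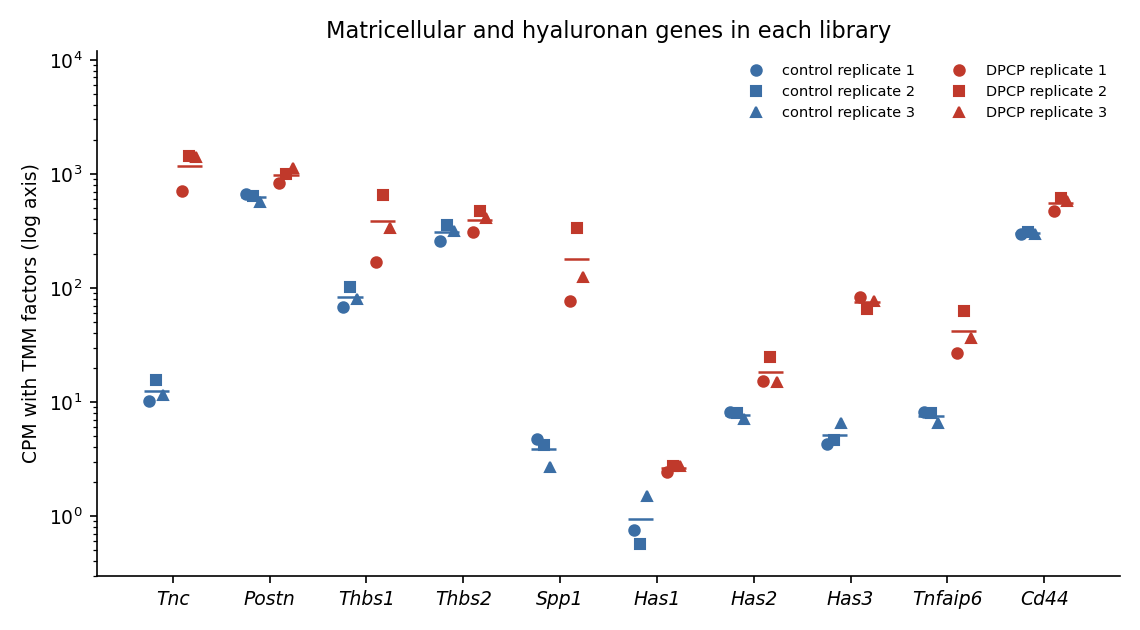
Level of the 10 genes in each of the 6 libraries, in CPM with TMM factors on a log axis; blue marks are control and red marks DPCP libraries, the symbol gives the replicate and the horizontal lines are group means of 3 libraries. The DPCP marks lie above all control marks for every gene but Thbs2, where DPCP replicate 1 (306 CPM) lies below 2 control libraries.

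Tnc, on chromosome 4 (63959785 to 64047015, minus strand of GRCm38, ENSMUSG00000028364), encodes tenascin C, a large glycoprotein of healing wounds. It stood at 10.2, 15.7 and 11.4 CPM (counts scaled to a common library size with edgeR's TMM factors) in control and at 706, 1432 and 1396 CPM in DPCP replicates 1, 2 and 3. The groups were far apart, and within the DPCP group replicate 1 was the lowest, replicate 2 standing 2.03-fold above it. The means were 12.4 ± 2.85 CPM (SD, n = 3) and 1178 ± 409 CPM (SD, n = 3), a 94.6-fold ratio and a log2 fold change of 6.56 with an SE of 0.34 (adjusted p in edgeR = 6.43e-06). That log2 fold change ranked 50 of 18259, so 0.268% of tested genes lay above it. An antisense gene, 8030451A03Rik, named after its values were seen, shares 176 of the 7772 exon bases of Tnc (2.26%). It had 0, 0 and 1 counts in control and 34, 87 and 59 in DPCP libraries. Reads on the shared bases were dropped, so these counts come from its other exon bases, where counting took either strand.

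Spp1 on chromosome 5 (104435118 to 104441050, ENSMUSG00000029304) encodes osteopontin, a phosphoprotein ligand of integrins and CD44 made by macrophages and other cells. Its levels were 4.77, 4.23 and 2.72 CPM in control and 76.2, 333 and 125 CPM in DPCP libraries. The DPCP group was spread widely, replicate 2 standing 4.37-fold above replicate 1, yet its lowest library was far above the highest control. The log2 fold change was 5.52 ± 0.58 (SE; adjusted p in edgeR = 0.000167) and 4.69 without DPCP replicate 2, a fold 1.78 times smaller. Of its 1648 exon bases, 309 (18.8%) are shared with Gm42793 on the same strand, and reads there were not counted for either gene, so its level leaves them out.

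The start-site windows of the 2 matricellular genes with the largest changes are shown because these genes differed most between the groups; they were chosen after their values were seen. They run from 250 bases before to 50 after a RefSeq start site on GRCm38.p6 (Tnc at chr4:64046966-64047265, minus strand, and Spp1 at chr5:104434861-104435160, plus strand), 5′ to 3′, with matches to a TATA box in capitals.
Tnc: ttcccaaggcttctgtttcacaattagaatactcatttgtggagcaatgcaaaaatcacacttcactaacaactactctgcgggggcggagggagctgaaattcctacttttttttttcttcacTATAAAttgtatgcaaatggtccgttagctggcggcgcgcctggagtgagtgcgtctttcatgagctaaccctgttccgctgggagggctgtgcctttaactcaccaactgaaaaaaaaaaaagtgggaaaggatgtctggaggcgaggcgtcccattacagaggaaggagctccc
Spp1: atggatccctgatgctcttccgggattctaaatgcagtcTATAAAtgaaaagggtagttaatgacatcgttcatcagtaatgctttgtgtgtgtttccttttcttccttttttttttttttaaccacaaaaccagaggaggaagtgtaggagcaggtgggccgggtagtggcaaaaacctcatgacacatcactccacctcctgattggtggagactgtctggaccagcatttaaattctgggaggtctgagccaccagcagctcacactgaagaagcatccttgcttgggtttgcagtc
The motifs searched, on both strands, were the AP-1 site TGANTCA, the NF-kB site (GGG and TTCC with 3 bases of any kind between), the STAT site TTCNNNGAA and the TATA box TATAAA. In these windows only TATAAA was found, at −126 from the start site of Tnc and at −211 from that of Spp1. Whether these letters act as a TATA box at those distances was not tested. Tnc and Spp1 each had 2 promoter entries, of which 1 is shown. TATAAA also lay in the windows of Postn, at −26, and of Thbs2, at −126 on the opposite strand. Of 32851 RefSeq windows of the same length, 13.6% hold TATAAA, 7.81% the AP-1 site, 5.56% the NF-kB site and 8.30% the STAT site. A match is a match of letters and shows no binding. Promoter windows were at hand for 7 of the 10 genes.

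The thrombospondins, large calcium-binding glycoproteins that bind CD36 and CD47, gave unlike results: Thbs1 was called higher and Thbs2 was not. Thbs1, which also activates latent TGF-beta, lies on chromosome 2 (118111876 to 118127133, ENSMUSG00000040152). It measured 68.2, 101.6 and 79.2 CPM in control and 169, 656 and 338 CPM in DPCP libraries. The groups did not overlap, and DPCP replicate 2 was again the highest, 3.87-fold above replicate 1. Its log2 fold change was 2.22 ± 0.42 (SE; adjusted p in edgeR = 0.00304) and 1.61 without DPCP replicate 2, a fold 1.53 times smaller.

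Thbs2, the thrombospondin of fibroblasts in the dermis, lies on chromosome 17 (14665500 to 14694235, ENSMUSG00000023885). It measured 257, 354 and 313 CPM in control and 306, 477 and 408 CPM in DPCP libraries, and the groups overlapped. Its log2 fold change of 0.37 ± 0.17 (SE) did not pass (edgeR adjusted p = 0.117 by the quasi-likelihood F-test), but did with the replicate number as a block (adjusted p = 0.0129), without a count filter (0.0407) and without DPCP replicate 1 (0.0214). Within libraries, the log2 ratio of Thbs1 to Thbs2 per length was −1.69 ± 0.0927 in control and −0.0169 ± 0.659 in DPCP libraries (SD, n = 3). All 3 DPCP ratios lay above all control ratios (exact permutation test, two-sided, p = 0.10, the smallest that 3 against 3 libraries allow; 0.133 adjusted over 4 ratios). Control skin thus held more Thbs2 than Thbs1 per length in each library, while in DPCP skin the ranges of both overlapped.

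Postn, on chromosome 3 (54361109 to 54391037, ENSMUSG00000027750), encodes periostin, which binds collagen and tenascin C. It was abundant in both groups, at 667, 642 and 570.0 CPM in control and 836, 989 and 1121 CPM in DPCP libraries. The groups did not overlap, though the difference was small, a 1.57-fold ratio of means and a log2 fold change of 0.65 with an SE of 0.13 (adjusted p in edgeR = 0.00354). The log2 ratio of Tnc to Postn per length was −5.51 ± 0.334 in control and 0.365 ± 0.400 in DPCP libraries (SD, n = 3; exact permutation test, two-sided, p = 0.10; 0.133 adjusted over 4 ratios). In control skin Postn exceeded Tnc in every library. In DPCP skin Tnc was slightly below Postn in replicate 1 (log2 ratio −0.08) and above it in replicates 2 and 3 (0.70 and 0.48).

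The 3 hyaluronan synthase genes all rose, by unequal amounts. Has3, on chromosome 8 (106870242 to 106884566, ENSMUSG00000031910), encodes the synthase prominent in epidermal keratinocytes. It measured 4.29, 4.63 and 6.51 CPM in control and 82.4, 64.8 and 77.3 CPM in DPCP libraries. The DPCP libraries lay close together, and replicate 2, the highest for 7 of the 10 genes, was here the lowest. The log2 fold change of 3.86 with an SE of 0.18 (adjusted p in edgeR = 4.48e-06) ranked 165 of 18259, and ranged from 3.76 to 4.07 when each library was left out in turn. Chtf8 on the other strand shares 352 of its 6380 exon bases (5.52%) and had 6 to 13 counts in any library.

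Has2, on chromosome 15 (56665627 to 56694539, ENSMUSG00000022367), encodes the main synthase of dermal fibroblasts. Its control levels were 8.14, 7.93 and 7.04 CPM and its DPCP levels 15.2, 24.6 and 15.1 CPM. Every DPCP library was above every control library, replicate 2 most of all. Its log2 fold change was 1.25 ± 0.20 (SE; adjusted p in edgeR = 0.00146), and 0.97 without DPCP replicate 2. Its antisense gene Has2os, named after its values were seen, differed the other way, with 77, 85 and 68 counts in control and 53, 45 and 16 in DPCP libraries (log2 fold change −1.18 ± 0.37, SE; edgeR adjusted p = 0.0276). That call was lost without control replicate 1 (adjusted p = 0.0726), control replicate 2 (0.086) or DPCP replicate 2 (0.0526). The genes share 182 of the 4237 exon bases of Has2 (4.29%), and counting without strand leaves the assignment of reads elsewhere in overlapping transcripts uncertain.

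Has1, on chromosome 17 (17843323 to 17855205, ENSMUSG00000003665), encodes a synthase usually scarce in resting skin and had the lowest level per length of the 10 genes. It had 22, 17 and 50 counts in control and 84, 100 and 85 in DPCP libraries, or 0.749, 0.567 and 1.49 against 2.42, 2.73 and 2.74 CPM. Control replicate 3 was well above the other control libraries, and the groups did not overlap. The log2 fold change was 1.48 ± 0.34 (SE; adjusted p in edgeR = 0.00807) and 2.00 without control replicate 3.

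The order of the synthase transcripts was not the same in the 2 groups. Per length, summed Has1, Has2 and Has3 levels were 2.72 to 3.01 CPM per kilobase in control and 16.3 to 17.1 CPM per kilobase in DPCP libraries. Has2 was 64.5 ± 8.09% of that sum in control and 26.0 ± 7.88% in DPCP skin, Has3 28.3 ± 4.95% and 70.5 ± 8.02%, and Has1 7.19 ± 3.34% and 3.51 ± 0.312% (SD, n = 3). Has2 thus led in each control library and Has3 in each DPCP library. For each of the 3 shares the groups did not overlap (exact permutation test, two-sided, p = 0.10, the smallest possible; 0.10 adjusted over 3 shares). The log2 ratio of Has3 to Has2 was −1.20 ± 0.431 in control and 1.47 ± 0.581 in DPCP libraries (SD, n = 3; exact p = 0.10; 0.133 adjusted), whereas that of Has1 to Has2 was −3.25 ± 0.821 and −2.85 ± 0.367 with overlapping groups (exact p = 0.50; 0.50 adjusted).

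**Figure D2:**
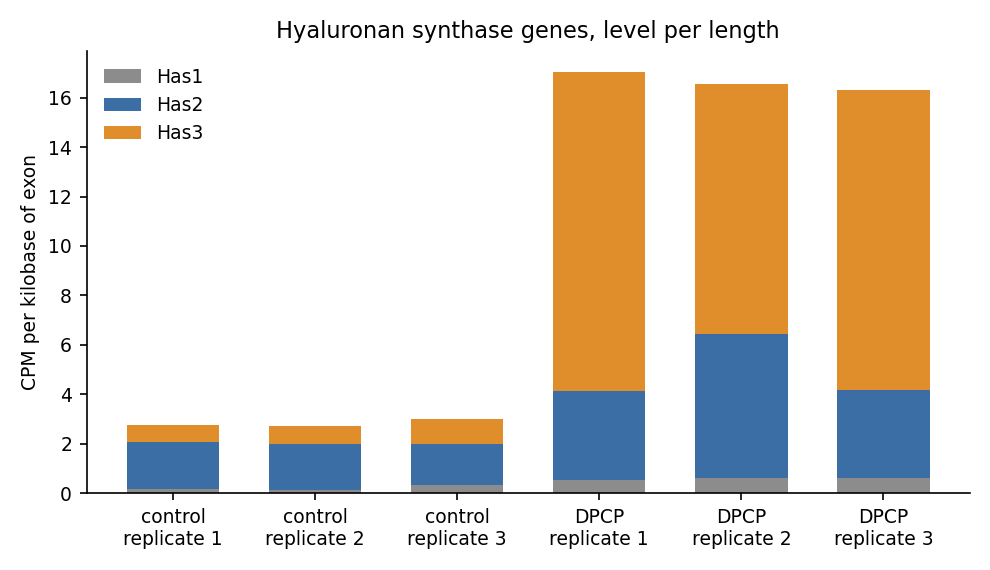
Levels of Has1, Has2 and Has3 in each library, in CPM per kilobase of exon, stacked from 0. The sum lies at 2.72 to 3.01 in control and 16.3 to 17.1 in DPCP libraries, and the Has3 segment makes up 61.2% to 75.8% of it there against 24.4% to 33.9% in control.

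Tnfaip6, on chromosome 2 (52038009 to 52056686, ENSMUSG00000053475), encodes TSG-6, a hyaluronan-binding protein induced by inflammatory cytokines. It measured 8.11, 7.998 and 6.51 CPM in control and 26.9, 62.2 and 36.6 CPM in DPCP libraries. The groups did not overlap, and replicate 2 was the highest DPCP library. The log2 fold change was 2.48 ± 0.29 (SE; adjusted p in edgeR = 0.000272), and 2.07 without DPCP replicate 2. Its start-site window (chr2:52037863-52038162, plus strand of GRCm38.p6) is shown because it was the only one of the 7 windows to hold an AP-1 site or a STAT site, here in capitals with the STAT match first.
Tnfaip6: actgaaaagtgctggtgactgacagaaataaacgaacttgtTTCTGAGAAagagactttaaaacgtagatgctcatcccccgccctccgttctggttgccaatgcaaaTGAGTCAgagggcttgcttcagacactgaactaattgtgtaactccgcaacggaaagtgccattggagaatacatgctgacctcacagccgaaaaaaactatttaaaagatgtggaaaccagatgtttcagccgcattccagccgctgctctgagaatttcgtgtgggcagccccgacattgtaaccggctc
The AP-1 letters begin at −142 and the STAT letters at −209 from the RefSeq start site, which lies downstream of the gene start in the count table.

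Cd44, on chromosome 2 (102811141 to 102901665, ENSMUSG00000005087), encodes the hyaluronan receptor, which osteopontin also binds. It was abundant, at 294, 311 and 300 CPM in control and 470, 617 and 573 CPM in DPCP libraries. The control libraries lay close together and all DPCP libraries lay well above them. The log2 fold change was 0.88 ± 0.11 (SE; adjusted p in edgeR = 0.000469). Gene-level counts do not separate the splice forms of Cd44.

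Ordered by level per length, the 10 genes changed places. In control skin the order of mean CPM per kilobase was Postn (72.0), Cd44 (44.5), Thbs2 (44.0), Thbs1 (13.7), Tnfaip6 (4.41), Spp1 (2.37), Has2 (1.82), Tnc (1.602), Has3 (0.806) and Has1 (0.207). The ranges over libraries overlapped between Cd44 and Thbs2, between Spp1 and Has2 and between Has2 and Tnc, but not between the other neighbours. In DPCP skin Tnc had the highest mean (152 CPM per kilobase), ahead of Postn (113), Spp1 (108), Cd44 (81.7), Thbs1 (63.8) and Thbs2 (56.7), and each of these overlapped its neighbours in range. Tnfaip6 (24.5), Has3 (11.7), Has2 (4.32) and Has1 (0.583) followed without overlap. Tnc moved from place 8 to place 1 and Spp1 from 6 to 3. The lengths used include exon bases shared with other genes, where reads were not counted. Spp1 had the largest such share (18.8%), so its level per length is understated and its place could be higher.

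DPCP replicate 2 was the highest DPCP library for 7 of the 10 genes, as it was for 45.6% of all genes called higher. Its excess over the mean of the other DPCP libraries was 3.32-fold for Spp1, 2.58-fold for Thbs1, 1.96-fold for Tnfaip6 and 1.63-fold for Has2, but 1.01-fold for Postn and 0.811-fold for Has3. Summed neutrophil markers were also highest in replicate 2, at 256, 732 and 379 CPM in DPCP replicates 1, 2 and 3. In control they summed to 126 to 152 CPM. Of 9 tested markers 8 were called higher and 1, Il1r2, lower. The number lower was 0 when either replicate 1 library or DPCP replicate 3 was left out. Ltf, Ly6g and Ngp were not tested at these low counts. Il1r2 made most of the control sum (133, 107 and 112 CPM) and stood at 61.1, 101 and 57.2 CPM in DPCP libraries. Macrophage and monocyte markers were highest in replicate 2 as well (4971, 5940 and 3513 CPM against 2156 to 3556). Their lowest DPCP library by summed level was replicate 3, within the control range. DPCP replicate 1 was the lowest DPCP library for 8 of the 10 genes, as it was for 57.9% of all genes called higher. Of the 13 macrophage and monocyte markers 7 were higher and 0 lower. Platelet markers too were highest in replicate 2 (129, 263 and 157 CPM against 39.5 to 62.1), with 3 of 4 tested higher. Among the platelet markers, Gp9, Gp6, Gp1bb and Treml1 had at most 6 counts in any library, while Pf4, which macrophages also express, made most of the sum. Mast cell markers (359, 459 and 358 CPM against 250 to 290; 4 of 6 higher, 0 lower) and endothelial markers (396, 444 and 427 CPM against 246 to 287; 4 of 7 higher; 1 lower, but 0 without control replicate 2 or without DPCP replicate 3) were also highest in DPCP replicate 2. Fibroblast markers, again highest there within the DPCP group, summed to 5459 to 7585 CPM in control and 6698 to 8127 CPM in DPCP libraries (3 of 10 higher, 1 lower). Keratinocyte markers, abundant in every library as the skin label requires, summed to 22350 to 28080 and 29090 to 33110 CPM (2 of 8 higher, 3 lower). Krt14 made most of the DPCP sum, with means of 4776 CPM in control and 17430 CPM in DPCP skin. The 3 lower markers were Krt10 (means 5919 and 1020 CPM), Krt1 (3126 and 1853 CPM) and Krt15 (2225 and 651 CPM). Skeletal muscle markers were lower in all 8 cases (11820 to 14380 against 3179 to 6221 CPM), and T and NK cell markers in 7 of 10, while 1 of the 10, Cd4, was called higher. The part of these cells in the levels of the 10 genes was not tested.

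**Figure D3:**
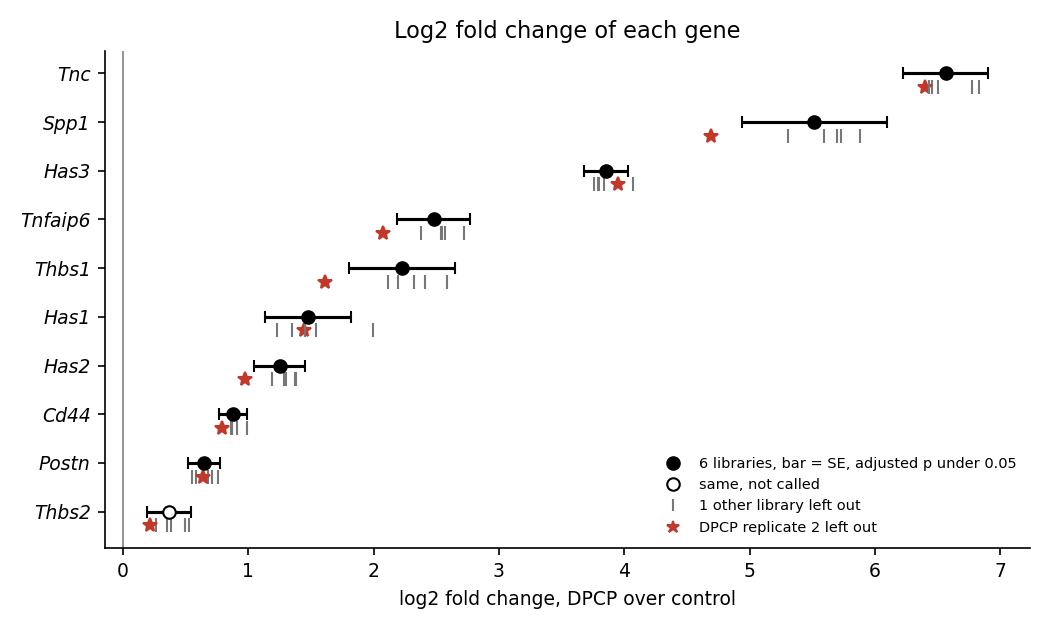
Log2 fold change of DPCP over control for each gene; circles with bars are values from all 6 libraries with their SE (filled, adjusted p under 0.05), ticks are values with 1 other library left out and red stars those without DPCP replicate 2. The red star lies left of the bar for Spp1 (4.69), Thbs1 (1.61), Tnfaip6 (2.07) and Has2 (0.97), and close to the circle for Tnc (6.40) and Has3 (3.95).

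Other genes of the same pathways were taken from 6 lists, chosen, like the 10 genes, with earlier results of these data known. Counts called in these lists, and in the marker lists above, stand beside 22.8% of all tested genes called higher and 23.3% lower. Among 26 other matricellular genes, 19 were tested, of which 5 rose, 8 fell and 6 were not called (median log2 fold change −0.70, against 1.85 for the 10 genes). Smoc2, Spock2 and Ccn5 (matricellular proteins of the SPARC and CCN families) fell, with log2 fold changes of −1.47 ± 0.12, −1.73 ± 0.25 and −1.22 ± 0.19 (SE). Spock1, at 0.359 ± 0.0873 and 0.813 ± 0.0299 CPM (SD, n = 3), was called higher (log2 fold change 1.18 ± 0.33, SE; edgeR adjusted p = 0.0187), but not by DESeq2 (adjusted p = 0.06), nor by edgeR once control replicate 3 (0.0724), DPCP replicate 2 (0.0548) or DPCP replicate 3 (0.053) was left out. The count of 5 higher genes was unstable: it was 1 without control replicate 1, 2 without DPCP replicate 2, 0 without control replicate 3 or DPCP replicate 3, and 2 with library totals alone.

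The list for hyaluronan breakdown included the largest log2 fold change among the tested genes of the 6 lists. Of 11 listed, 9 were tested, of which 5 rose and 2 fell. Cemip, which encodes a protein that cuts hyaluronan in skin fibroblasts, stood at 1.16, 0.833 and 1.40 CPM in control and at 16.8, 35.3 and 35.0 CPM in DPCP libraries. DPCP replicate 1 was the lowest DPCP library, as it was for 57.9% of all genes called higher. No DPCP library came near the controls (log2 fold change 4.67 ± 0.34, SE, edgeR adjusted p = 3.09e-05). Gusb, a lysosomal glucuronidase, rose by 1.34 ± 0.17 and the hyaluronidase gene Hyal2 by 0.85 ± 0.11, while Hyal4 fell by 0.79 ± 0.15 (log2 scale, SE). Whether Hyal4, listed with the hyaluronidase family, acts on hyaluronan was not examined. The count of 2 lower genes was 1 without control replicate 1.

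Of 22 genes for hyaluronan binding, uptake and matrix assembly, 12 were tested, of which 6 rose and 3 fell (median log2 fold change 0.81). Vcan, which encodes versican, a large proteoglycan that binds hyaluronan, rose from a mean of 41.2 ± 10.01 to one of 166 ± 48.2 CPM (SD, n = 3), by 2.01 ± 0.24 on the log2 scale (SE). Hmmr, a hyaluronan-binding protein best known from dividing cells, rose by 1.48 ± 0.11 and the receptor gene Layn by 1.56 ± 0.21, while Habp4 fell by 0.69 ± 0.10 (log2 scale, SE). Ptx3 and the inter-alpha-trypsin inhibitor genes are named after their values were seen. Ptx3, which encodes pentraxin 3, a binding partner of TSG-6, stood at 2.11, 2.27 and 2.09 CPM in control and 8.89, 51.7 and 24.9 CPM in DPCP libraries (log2 fold change 3.73 ± 0.58, SE; edgeR adjusted p = 0.00112; 2.97 without DPCP replicate 2). The genes of the inhibitor's heavy chain family did not move one way. Itih5 fell from 164 ± 45.7 to 67.4 ± 21.0 CPM (SD, n = 3), the rare Itih3 was called higher with 6, 4 and 5 counts in control and 25, 23 and 23 in DPCP libraries, and Itih2 was not called (adjusted p in edgeR = 0.232). Itih1, Itih4 and the light chain gene Ambp were not tested. Ambp had 0 counts in every control library and 9, 30 and 14 counts in DPCP libraries.

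Another list held genes supplying the UDP-sugars from which hyaluronan is built. Of 14 listed, 13 were tested, of which 7 rose and 2 fell (median log2 fold change 0.36). Pgm3, Gfpt1 and Pgm2 rose by 0.87 ± 0.13, 0.70 ± 0.11 and 0.75 ± 0.13 and Pgm1 fell by 0.55 ± 0.09 (log2 scale, SE). Ugp2, the other gene called lower and named after its value was seen, fell by 0.49 ± 0.16 (log2 scale, SE). Whether Pgm2 acts in this supply was not examined. Gfpt1 is the entry enzyme of the hexosamine pathway and Pgm3 acts later in it. Ugdh, the source of UDP-glucuronic acid, averaged 71.0 ± 3.70 CPM in control and 73.8 ± 8.96 CPM in DPCP skin (SD, n = 3) and was not called (adjusted p in edgeR = 0.675). It is named here after its value was seen. The count of 2 lower genes was 1 without control replicate 1, 2 or 3.

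Of 22 receptor genes for matricellular proteins, 12 rose, 3 fell and 7 were not called (median log2 fold change 0.52). Ptprz1, a receptor tyrosine phosphatase that binds tenascin C, rose most, from 8.24 ± 0.510 CPM in control to 54.7 ± 11.2 CPM in DPCP skin (SD, n = 3), by 2.73 ± 0.16 on the log2 scale (SE; adjusted p in edgeR = 1.26e-05). The integrin chain genes Itga5 and Itga3 rose by 1.53 ± 0.17 and 1.27 ± 0.16, and Itgb5 fell by 0.74 ± 0.11 (log2 scale, SE). Of 12 Cd44 partners and proteases, 5 rose, 1 fell and 6 were not called. Srgn, serglycin, a proteoglycan of blood cells that binds CD44, rose from 35.4 ± 9.24 to 259 ± 145 CPM (SD, n = 3). Msn, moesin, which links CD44 to actin, rose by 1.37 ± 0.14, and Adam10, a sheddase of CD44, by 0.67 ± 0.07 (log2 scale, SE). Rdx, the moesin relative radixin, fell by 0.29 ± 0.08 and was not called without control replicate 2 (adjusted p = 0.0511), DPCP replicate 1 (0.05005) or DPCP replicate 2 (0.0564).

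**Figure D4:**
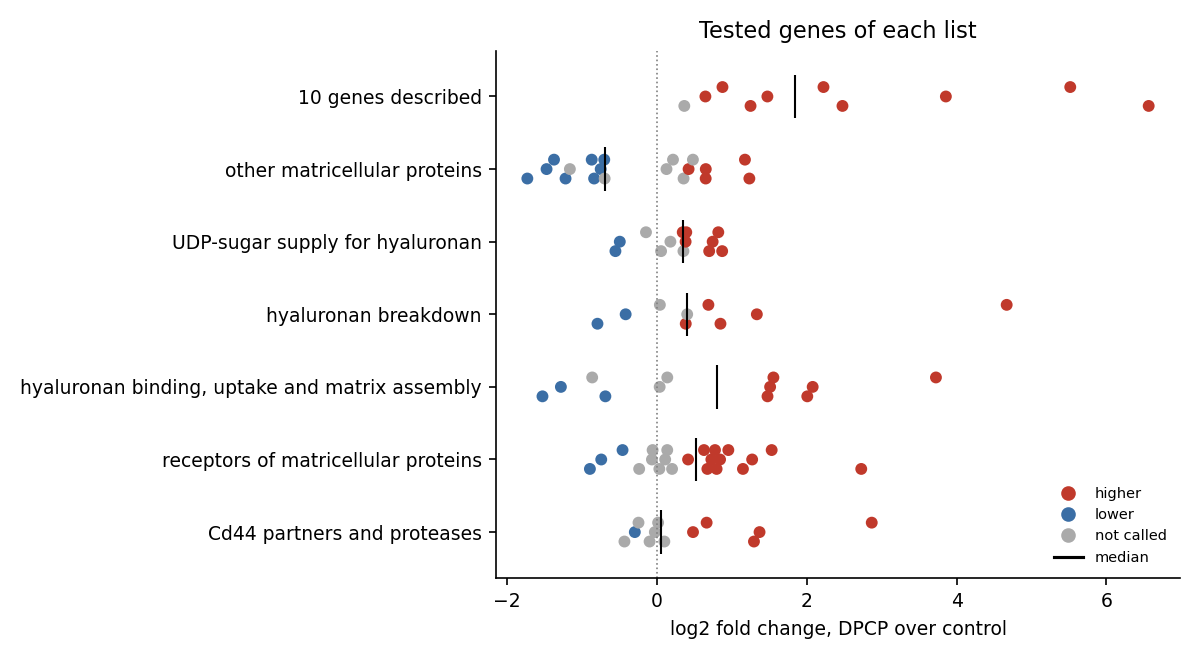
Log2 fold change of DPCP over control for the tested genes of the 10 described and of 6 pathway lists; red points were called higher, blue points lower and grey points not called, and black bars are medians. The described genes have the rightmost median (1.85) and the other matricellular genes the leftmost (−0.70), with Cemip at 4.67 and Ptx3 at 3.73 standing apart in the hyaluronan lists. Genes and lists were chosen with earlier results of these data known.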

How the data were processed

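Whole-skin RNA was extracted with TRIzol and sequenced in pairs from a stranded poly(A) library kit, per the labels' protocols. The values are raw counts per gene deposited by the authors, made with featureCounts 1.6.2 on the Ensembl GRCm38 annotation, per the file headers. No option for strand, pairs, multiple alignment or overlapping genes was set there, so mates were counted singly, either strand was accepted, and reads on shared exons were dropped. Per the submitters' processing notes, mm10 was the build, and the tools included HISAT2 2.2.1 and Trimmomatic 0.36, with DESeq2 1.34.0 and StringTie 2.2.1. The deposited exon lengths, in bases (other), gave levels per kilobase. Library totals were 28346992 to 38846787 counts, and a count of 0 would allow up to 0.0772 to 0.106 CPM (3 counts, counting error only). No library repeated another: the smallest chi-square per gene within a group was 19.6.

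Genes were tested with edgeR 4.0.16 in R 4.3.3 (quasi-likelihood F-test, TMM, filterByExpr, all 6 libraries, no covariate), with p-values adjusted over all 18259 genes tested. SEs are the unshrunken log2 fold change over the square root of F. The procedure was run on simulated data with a far smaller share of changed genes than was called here. That run therefore does not test it at the share of changed genes in these data. Shares and ratios were compared by exact permutation over libraries with scipy 1.17.1. Alternatives were other scaling factors, other count filters, DESeq2 1.42.0, the replicate number as a block, and leaving out each library. Symbols came from a reference table of gene names (55141 of 55487 IDs matched) and promoter windows from RefSeq on GRCm38.p6. The 10 genes, the lists and the rules were chosen with earlier results of these data known. From each pathway list the text names up to 3 called genes of smallest p in the main direction and 1 in the other. Others are said to be chosen after seeing values. The cell type markers Pf4, Cd4, Il1r2, Krt14, Krt10, Krt1 and Krt15 were also named after their values were seen. No likeness of pattern was computed, since 6 libraries in 2 groups allow no pooled correlation.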

Additional observations from a re-analysis of the deposited data

How the results depend on the processing

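All 9 called genes stayed called and higher under each of the 13 alternatives, and Thbs2 was called in 3 of them (no count filter, replicate block, without DPCP replicate 1). The number of the 10 genes called higher was 9 to 10 when each library was left out and 9 to 10 otherwise, with none called lower. Over all tested genes, 3492 to 4032 were called higher and 3430 to 4038 lower when each library was left out, against 4163 and 4254 with all. With library totals alone these were 3517 and 4858, and the median log2 fold change of all genes moved from −0.01 to −0.09. The differences in share and ratio kept their sign when each library was left out: 39.5 to 46.8 percentage points for the Has3 share, −43.2 to −36.0 for Has2 and −4.98 to −1.80 for Has1, and 2.48 to 3.002 for the log2 ratio of Has3 to Has2, 0.08 to 0.86 for Has1 to Has2, 1.34 to 1.99 for Thbs1 to Thbs2 and 5.70 to 6.10 for Tnc to Postn. With the replicate number as a block, 4260 genes were called higher and 4241 lower. The labels give same-numbered libraries only a number in common. Their deviations from the group means correlated at 0.046, 0.027 and 0.112 over genes. Differently numbered control and DPCP libraries gave −0.143 to 0.099. These values cannot tell whether the libraries were paired. The count of macrophage and monocyte markers called higher was 7, but 11 without a count filter and 12 with the replicate block, and of Cd44 partners called lower it was 1, but 2 by DESeq2, without a count filter, with the replicate block or without control replicate 3, and 0 without control replicate 2 or DPCP replicate 2. Fibroblast markers called higher were 3, but 5 without control replicate 2. The causes were not tested. Has1 had the fewest counts of the 10 genes, 17 to 100 a library.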
